A study of Mus musculus with 5 samples.

Results

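Ppy, Pyy and Npy encode the 3 peptides of one hormone family: pancreatic polypeptide, peptide YY and neuropeptide Y. They were taken by name from the 36529 gene rows of the deposited single-cell tables, and all 3 were present. Their transcripts were followed across cell types, clusters and libraries, in the same cells as Gcg, the gene of glucagon. The libraries came from mice in which the glucagon receptor gene Gcgr was knocked out. One library held islet cells with 1 knocked-out allele (heterozygous, wt/ko; 1326 cells kept), one held islet cells of the homozygous knockout (ko/ko; 2843 cells), and 3 held cells of pancreatic tumors from homozygous knockout animals. The tumor libraries are called A, B and C here, from the fewest cells to the most (495, 846 and 1084 cells kept), because they could not be matched to the sample numbers of the labels. All groups carry at least 1 Gcgr knockout allele, so no wild-type islet was compared, and no treatment was given. The labels give neither age nor strain.

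Each islet genotype had 1 library, so its values have counting error but no error between animals, and none of the islet genotype differences was tested. Libraries held between 10086827 and 34091060 unique molecular identifiers (UMIs, 1 per captured transcript), with medians of 10961 to 26091.5 per cell. A level is the number of UMIs of a gene per 1000000 UMIs (CPM), pooled over the cells of a type unless a cell median or a mean over cells is named. The capture reads the 3′ end of a transcript once, so no division by gene length is needed to set genes side by side. Intervals are 95% exact intervals (Poisson for levels, conditional for ratios, Clopper-Pearson for shares) and cover counting error only. Where a count is 0, the limit given is that of 3 counts, which lies below the upper end of the exact interval. In the islet libraries the cell types are those of the authors, and the endothelial cells, which are not known to make these peptides, give the background that free RNA in the cell suspension leaves in every droplet. The tumor libraries held no typed cells of another kind, so all their kept cells were used, and the alpha cell markers Gcg, Ttr, Irx1, Irx2, Gc and Slc7a2 were at 5 CPM or more in each. In both islet libraries the typed alpha cells held these markers at that level and the endothelial cells all 6 of theirs. The PP cells held 5 of 8 PP markers, with 1 at 0. Endothelial cells of the same library also held 5 of these 8 and alpha cells 6, so this count does not set the PP type apart.

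As background, the peptides of this family are made as longer precursors, cut by prohormone convertases and amidated at the C terminus, and they act on G protein-coupled Y receptors. Pancreatic polypeptide is the hormone of the PP (gamma) cell of the islet and prefers the Y4 receptor. Peptide YY is best known from enteroendocrine L cells of the gut, which also transcribe Gcg, and from islet cells, while neuropeptide Y is chiefly a neuronal transmitter that can also be made in beta cells. Ppy and Pyy are neighbours in the mouse genome, whereas Npy lies on another chromosome.

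The sequences before the 3 start sites are given because Ppy and Pyy, which lie close together, were found at high levels in the same cells, and Npy was not. The RefSeq annotation of build GRCm38.p6 places Ppy on the minus strand at chr11:102099931-102101319 and Pyy on the minus strand at chr11:102106676-102107832, with 5356 bases between them. Npy lies on the plus strand at chr6:49822710-49829507. The 250 bases before each start are printed 5′ to 3′ on the gene's own strand (Ppy chr11:102101320-102101569, Pyy chr11:102107833-102108082, Npy chr6:49822460-49822709), with the letters TATAA in capitals.
Ppy: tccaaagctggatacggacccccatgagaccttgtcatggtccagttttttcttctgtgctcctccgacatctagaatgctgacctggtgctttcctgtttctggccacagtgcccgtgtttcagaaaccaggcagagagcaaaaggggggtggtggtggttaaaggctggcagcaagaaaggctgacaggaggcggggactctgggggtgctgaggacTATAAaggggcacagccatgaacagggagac
Pyy: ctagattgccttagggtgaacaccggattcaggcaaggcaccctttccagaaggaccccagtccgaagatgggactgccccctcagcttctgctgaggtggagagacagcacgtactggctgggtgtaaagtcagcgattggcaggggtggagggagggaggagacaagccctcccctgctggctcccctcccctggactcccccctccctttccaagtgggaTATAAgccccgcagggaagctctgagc
Npy: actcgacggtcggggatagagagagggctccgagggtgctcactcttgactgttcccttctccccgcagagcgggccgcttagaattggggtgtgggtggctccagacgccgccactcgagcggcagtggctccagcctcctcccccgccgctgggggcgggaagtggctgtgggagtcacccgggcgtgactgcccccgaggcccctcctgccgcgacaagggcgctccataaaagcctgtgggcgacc
TATAA was found once before Ppy, from base -31 to -27, and once before Pyy, from base -27 to -23, counted back from the start site, and not before Npy. It was found on either strand in 22.8% of 32851 windows of this length in the same RefSeq table. The letters CANNTG were found before Pyy alone, at -36 to -31, where the pattern reads the same on both strands, and in 66.2% of all windows. TAAT was in none of the 3 windows and in 54.9% of all. The share of G and C was 55.2% before Ppy, 61.2% before Pyy and 69.2% before Npy. These matches are letters in a window and do not show that a factor binds there.

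In the heterozygous islet library, Ppy and Pyy were highest in delta cells, the somatostatin cells, and next highest in alpha cells. Delta cells (62) held Ppy at 36228 CPM and Pyy at 40867 CPM. Alpha cells (306) held Ppy at 16006 CPM (15868 to 16144.9) and Pyy at 19505 CPM (19353 to 19658.6). Beta cells (686) held 855 CPM of Ppy and 648 CPM of Pyy. Endothelial cells (195) held 631 CPM of Ppy (579 to 687) and 436 CPM of Pyy (392 to 482), so the beta cell levels were 1.36 times (1.24 to 1.48) and 1.49 times (1.34 to 1.65) the background. Against the same background the alpha cells held 25.4 times the Ppy (23.3 to 27.7) and 44.8 times the Pyy (40.4 to 49.7), and the delta cells 57.4 and 93.8 times. As ratios of median cells the alpha values were lower, at 3.32 for Ppy and 22.8 for Pyy. Stellate cells, the collagen-making cells of the islet surround, were at 1.04 times the background for Ppy (0.780 to 1.36). No cell of this library was typed as PP. However, 2 of its typed alpha cells lay in cluster 1.7, the cluster of the 62 delta cells. They held Ppy at 421885 CPM and Gcg at 6731 CPM, against 4100 CPM of Gcg in endothelial cells. The 304 alpha cells of cluster 1.2 held Ppy at 15198 CPM.

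In the homozygous islet library both transcripts were higher in each type that the libraries share, the background included. PP cells (151) held Ppy at 542049 CPM and Pyy at 100487 CPM, so that both transcripts together made up 64.3% of their UMIs. The type is named for this hormone, so its Ppy level is a description. Delta cells (332) came next, with 137843 CPM of Ppy and 95566 CPM of Pyy. Alpha cells (1525) held 76625 CPM of Ppy and 83482 CPM of Pyy, and beta cells (461) 47355 CPM and 14894 CPM. Endothelial cells (214) held 10586 CPM of Ppy (10319 to 10857) and 5506 CPM of Pyy (5314 to 5702), and stellate cells (74) were at 1.10 and 1.12 times that. The order of Ppy was thus PP, delta, alpha, beta and then the cells without hormones, and the intervals of neighbours among the hormone types did not overlap. For Pyy the PP, delta and alpha cells lay within a narrow range, from 83482 to 100487 CPM.

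Beta cells also show how far a pooled level can differ from the typical cell. Their pooled Ppy in the homozygous library was 4.47 times the endothelial level (4.36 to 4.59), but their median cell, at 16253 CPM, was 1.52 times the median endothelial cell, at 10703 CPM. For Pyy the pooled ratio was 2.71 and the ratio of medians 1.41. The median cell of the unnamed type was at 1.48 times the endothelial median for Ppy and 1.47 times for Pyy, near the beta values. The beta cells of cluster 2.7 (27 cells) held 196526 CPM of Ppy against 37249 CPM in the 432 beta cells of cluster 2.4, and 33 of 461 beta cells (7.16%) held more Ppy than Ins1 and Ins2 together. In the heterozygous library 0 of 686 beta cells did, which allows a share of up to 0.437%.

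**Figure D1:**
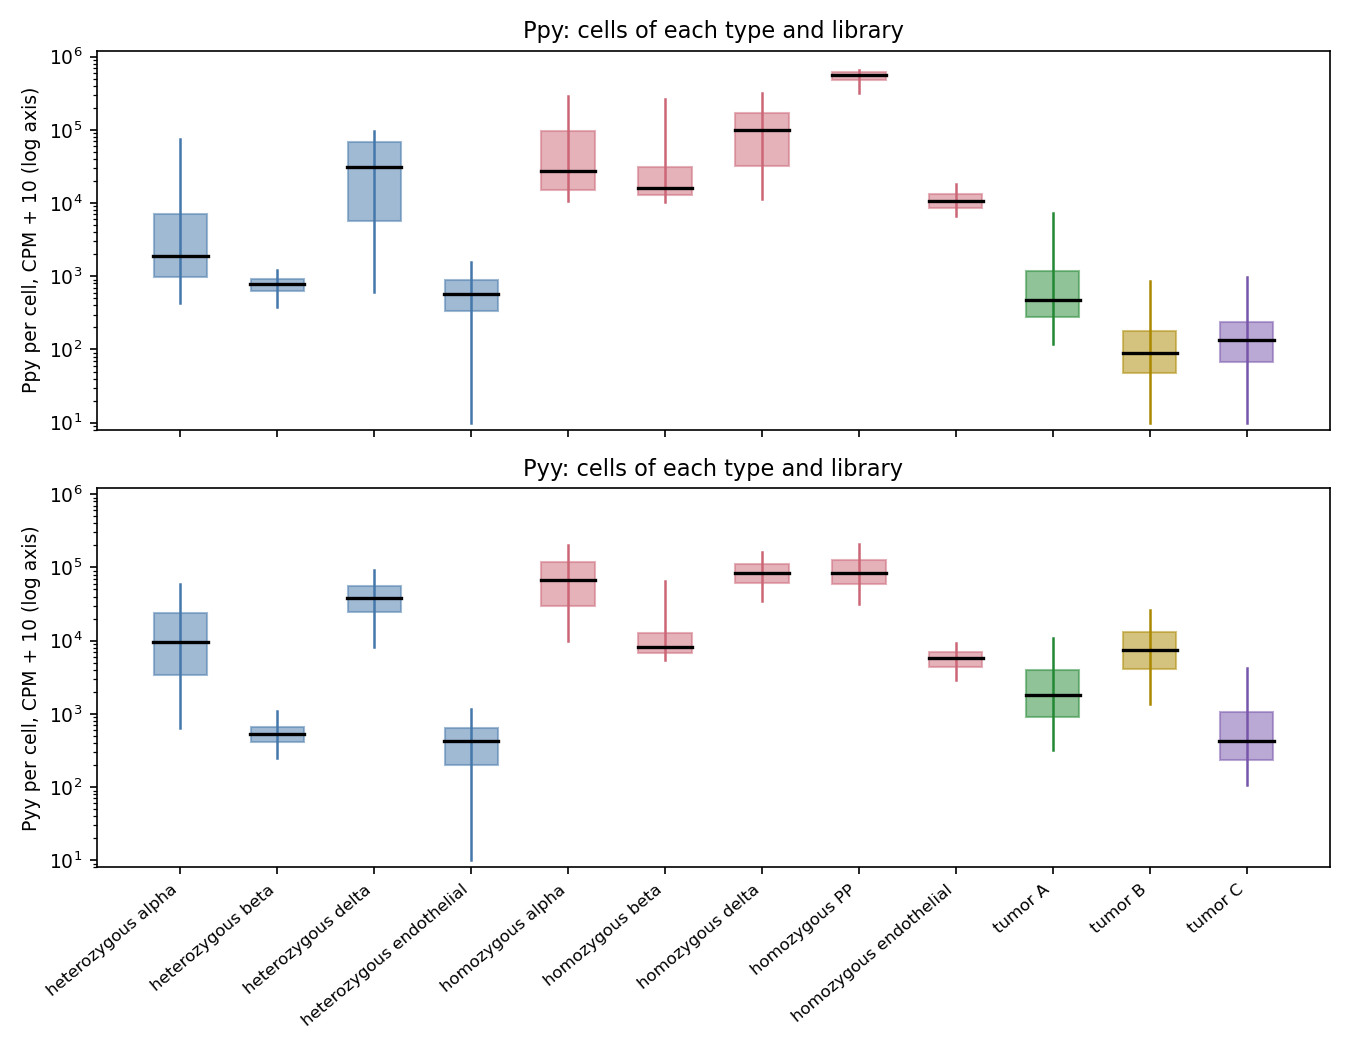
Ppy (top) and Pyy (bottom) per cell, in CPM plus 10 on a log axis, for cell types of the 2 islet libraries and for the 3 tumor libraries. Boxes span the 25th to 75th percentile of cells, thin lines the 5th to 95th percentile and black bars mark the median, which for Ppy in the homozygous library is 27462 CPM in alpha cells and 10703 CPM in endothelial cells.

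The ratio of Ppy to Pyy differed between some of the cell types. Ppy made up 45.1% of the Ppy and Pyy UMIs of heterozygous alpha cells (44.8 to 45.4), 47.0% in delta cells and 59.2% in endothelial cells (55.9 to 62.4). Heterozygous beta cells, at 56.9% (56.3 to 57.5), had an interval that overlapped the endothelial one. In the homozygous library the share was 47.9% in alpha cells, 59.1% in delta cells, 65.8% in endothelial cells (64.8 to 66.8), 76.1% in beta cells and 84.4% in PP cells. The alpha, delta, beta and PP intervals of that library did not overlap the endothelial one, and the stellate share, at 65.4%, lay within it. The share of the unnamed type, at 63.5% (62.4 to 64.7), lay below it. The part of free RNA in these shares was not tested.

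Ppy was unevenly spread among alpha cells. The 5% of heterozygous alpha cells with the most Ppy held 56.0% of all Ppy UMIs of the type, against 28.6% for Pyy in its own top cells. The median heterozygous alpha cell was at 1884 CPM of Ppy and 9553 CPM of Pyy, and the highest reached 555901 CPM of Ppy. In the homozygous library the top 5% of alpha cells held 31.7% of Ppy and 19.3% of Pyy, around medians of 27462 and 66375 CPM. Pyy exceeded Ppy in 78.4% of heterozygous alpha cells, in 66.4% of homozygous alpha cells and in 0 of 151 PP cells.

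To count cells clearly above background, each library's own 95th percentile of endothelial cells served as the limit (Ppy 1553 and Pyy 1171 CPM in the heterozygous library, 18023 and 9292 CPM in the homozygous one). Above it lay the Ppy of 171 of 306 heterozygous alpha cells (55.9%) and of 1001 of 1525 homozygous alpha cells (65.6%). The Pyy of 88.9% and 95.7% of these cells lay above its limit. Cells above both limits made up 53.3% and 65.4%, cells above that of Pyy alone 35.6% and 30.2%, and cells above that of Ppy alone 2.61% and 0.197%. Nearly all Ppy-rich alpha cells were Pyy-rich as well, but so were 88.9% and 95.7% of all alpha cells. Fewer cells passed the Ppy limit (55.9% and 65.6%), so the reverse could not hold to the same degree. These overlaps alone therefore do not show whether Ppy and Pyy went together. The same limit for Gcg was 6352 CPM in the heterozygous and 23152 CPM in the homozygous library. With Gcg above it as a further condition, 55.6% and 64.3% of alpha cells carried Ppy above background together with Gcg. The 5th percentile of Gcg among alpha cells was 182978 and 135486 CPM, far above these limits. The condition thus removed few cells, and these shares mostly repeat those of Ppy. A fixed limit of 10000 CPM gave 19.9% of heterozygous and 97.1% of homozygous alpha cells, but 60.3% of homozygous endothelial cells passed that limit too, so it falls within the background of that library. Of the homozygous alpha cells, 155 (10.2%) lay between 8000 and 12000 CPM.

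Across single cells Ppy and Pyy went together in alpha cells, with a Spearman correlation of 0.62 over 306 heterozygous and 0.64 over 1525 homozygous cells. In beta cells it was 0.31 and 0.86, in endothelial cells 0.10 and 0.50, and in delta cells 0.23 and -0.01. PP cells (151) went the other way, at -0.57. With hormone transcripts left out of the cell total, homozygous delta cells were at 0.22, PP cells at -0.04 and alpha cells at 0.64 and 0.74. With cells thinned to 5000 UMIs the heterozygous beta cells were at 0.15 and the PP cells at -0.66. These cells share a library and each pair of values shares the cell's total, so the coefficients are descriptions. Ppy and Gcg correlated at -0.11 in heterozygous and -0.58 in homozygous alpha cells. When the hormone transcripts were left out of the cell total, the same coefficients were 0.09 and -0.06. On that scale, with a total that holds no hormone, both coefficients lay near 0.

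A small group of typed alpha cells held more Ppy than Gcg. There were 4 of 306 in the heterozygous library (1.31%) and 132 of 1525 in the homozygous one (8.66%, 7.29 to 10.2). In the homozygous library 19 of 214 endothelial cells (8.88%), which hold little of either transcript, did so as well. In the homozygous library the typed alpha cells fell into cluster 2.1 (947 cells), cluster 2.2 (563 cells) and cluster 2.6 (15 cells). Ppy was at 28703, 158940 and 361275 CPM in these clusters, Pyy at 55927, 132061 and 171643 CPM, and Gcg at 350576, 286040 and 107029 CPM. Cluster 2.6 is also where 140 of the 151 PP cells lay. These clusters were made from genes that include the hormones, so the differences between them describe the clusters and are not tested. Delta cells overlapped in the same way: Ppy and Pyy together exceeded Sst, the somatostatin gene, in 10 of 62 heterozygous (16.1%) and 149 of 332 homozygous delta cells (44.9%).

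**Figure D2:**
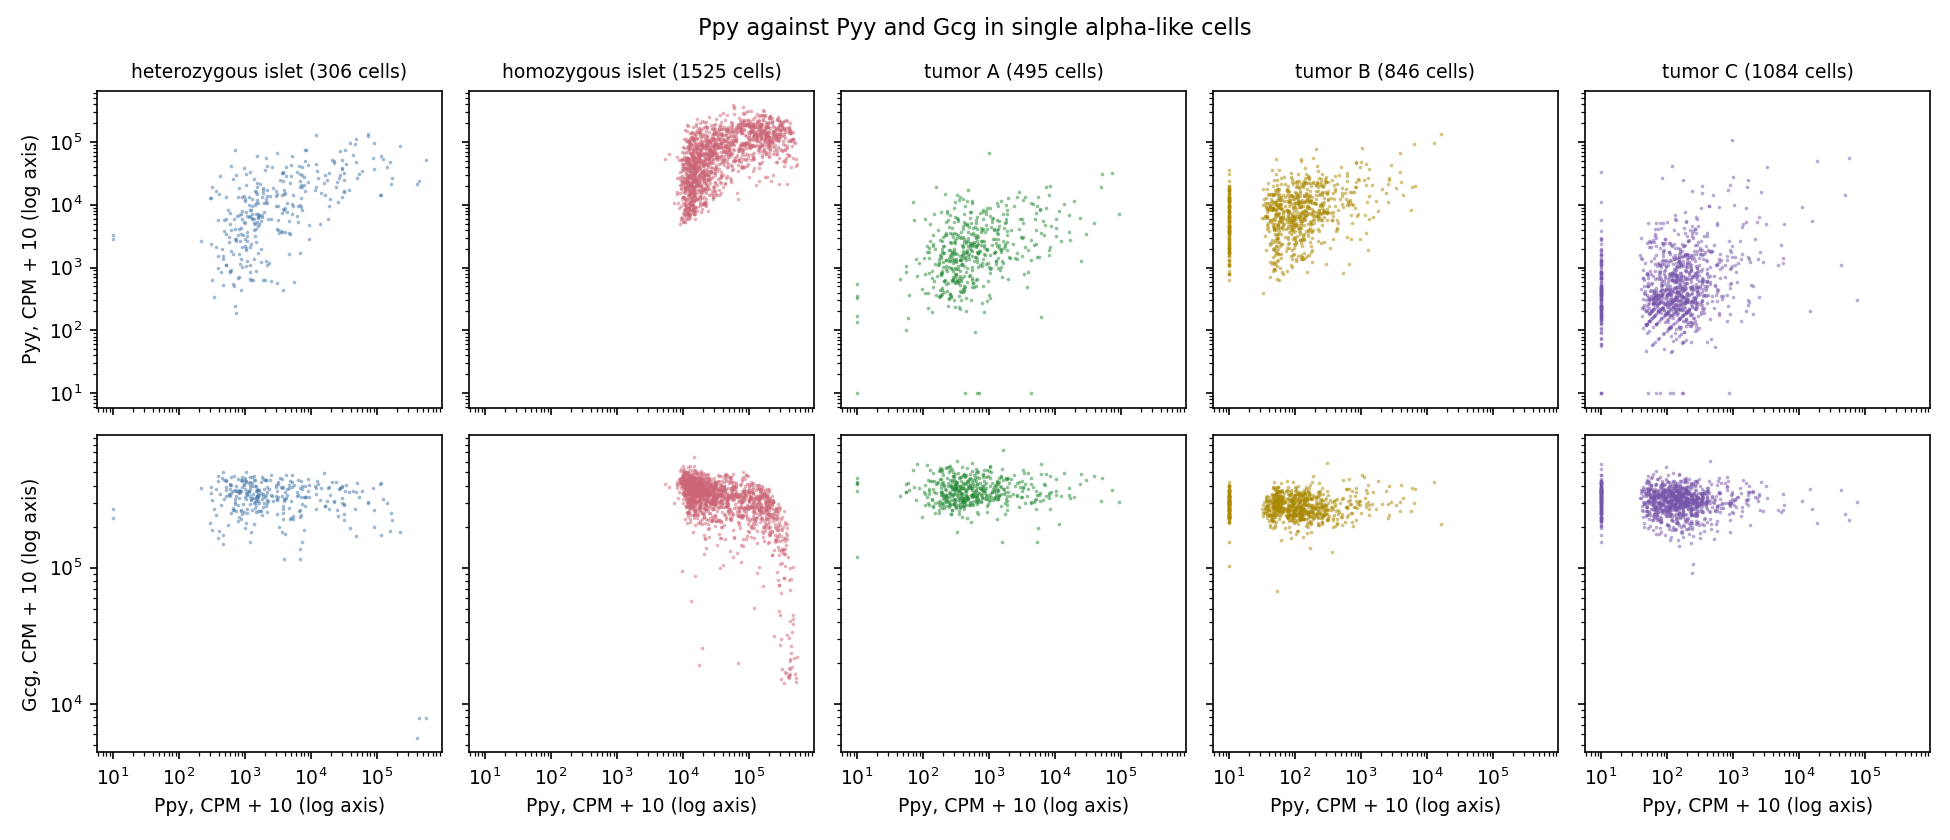
Ppy against Pyy (top row) and against Gcg (bottom row) in single alpha-like cells of the 5 libraries, both axes in CPM plus 10 on log scales, 1 point per cell. Cells with much Ppy lie high in Pyy in both islet libraries, and in the homozygous library 132 of 1525 cells hold more Ppy than Gcg.

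In some cells the recovered UMIs exceeded the total given by the authors by over 5%. In the homozygous library these were 29 alpha, 8 delta and 24 PP cells, with an excess of up to 30.2% in an alpha cell, and they were rich in both transcripts, with median Ppy of 309990, 335893 and 569927 CPM and median Pyy of 162639, 115680 and 107979 CPM. Without them, homozygous alpha cells held 69862 CPM of Ppy and 80778 CPM of Pyy. Cells poor in both transcripts had such an excess too: 37 of 44 heterozygous macrophages (median Ppy 698 CPM), 8 endothelial, 10 stellate and 10 unnamed cells of the homozygous library, 5 cells of tumor A (median Ppy 131 CPM) and 4 of tumor C. The cause of the excess was not tested.

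Between the islet genotypes, Ppy and Pyy were higher in the homozygous library in all 3 endocrine types that both libraries hold, whereas Npy was higher in delta cells alone. In alpha cells the homozygous over heterozygous ratio of the pooled levels was 4.79 for Ppy (4.75 to 4.83) and 4.28 for Pyy (4.25 to 4.31), and in delta cells 3.80 and 2.34. In beta cells it was 55.4 and 23.0, and in endothelial cells 16.8 (15.4 to 18.4) and 12.6 (11.3 to 14.1). The background thus differed between the libraries by more than the alpha cells did. With the endothelial level taken off each library, the alpha ratios were 4.30 and 4.09, and as ratios of median cells they were 14.6 and 6.95. Genotype, animal and library preparation cannot be told apart with 1 library each.

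In the tumors Ppy was low and Gcg was not. The mean over cells was 16112 CPM of Ppy in heterozygous and 73580 CPM in homozygous islet alpha cells, and 2036, 254 and 504 CPM in tumor libraries A, B and C. All 3 tumor libraries lay below both islet libraries. Ppy fell by 5.75 on the log2(CPM + 1) scale (SE 0.91, limma over the 10173 genes that passed the filter, adjusted p = 0.0292). Across all these genes the median change was 0.24, which puts Ppy at -5.99 relative to it. Of all genes tested, 14 (0.138%) were called lower and 212 (2.08%) higher.

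Pyy had the same direction but did not pass the test. Its mean over cells was 17714 and 81686 CPM in the islet alpha cells and 3275, 10444 and 1390 CPM in the tumor libraries, again without overlap, as for 5.73% of all genes tested. The estimated change was -3.39 (SE 0.92, limma adjusted p = 0.0979). Gcg was at 331150 and 323637 CPM in the islet alpha cells and at 372470, 287283 and 312802 CPM in the tumors, an estimated change of -0.02 (SE 0.79, limma adjusted p = 0.990), and the groups overlapped. Npy did not reach 5 CPM in 2 libraries and was not tested.

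The call for Ppy was lost under several settings and without several of the libraries. The islet arm mixes the genotypes, and without the heterozygous library the limma adjusted p was 0.112, without the homozygous one 0.113 and without tumor library C 0.0524. It was 0.107 with edgeR and 0.00134 with DESeq2, with estimated changes of -5.87 and -5.89. With limma it was 0.0647 under TMM scaling, 0.0616 with hormone transcripts left out of the totals, 0.0631 on median cells and 0.150 with no filter on low values. With only cluster 2.1, the less Ppy-rich cluster, as the homozygous alpha cells, the change was -5.06 (limma adjusted p = 0.0428).

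**Figure D3:**
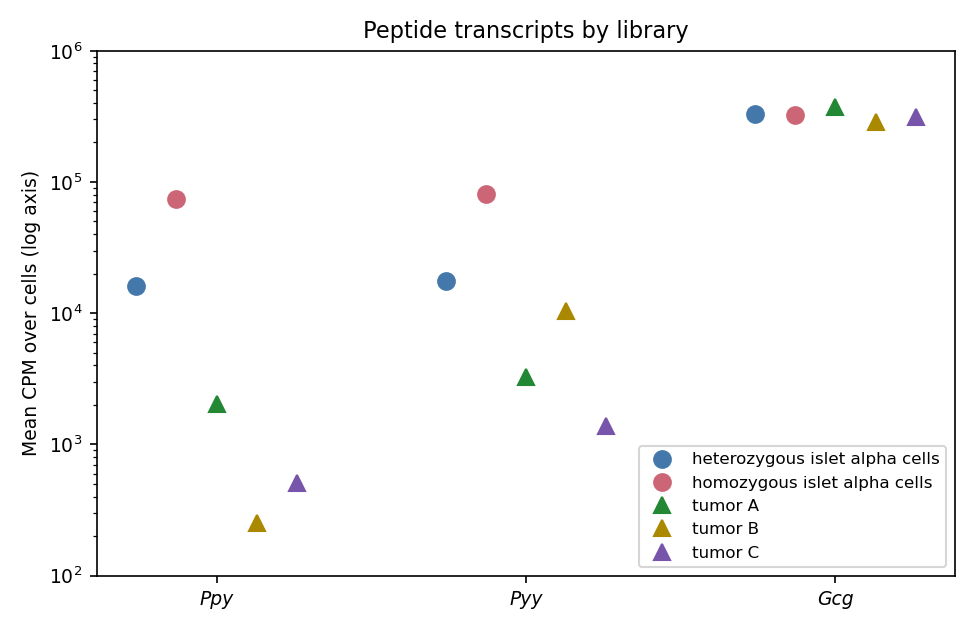
Mean CPM over cells of Ppy, Pyy and Gcg in each library on a log axis, with circles for islet alpha cells and triangles for tumor cells. All 3 triangles lie below both circles for Ppy and for Pyy, while those of Gcg lie on both sides of the circles.

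The tumor libraries differed among themselves in Ppy and Pyy far more than in Gcg, and in different orders. Pooled Ppy was 2349, 276 and 540 CPM in libraries A, B and C, a mean of 1055 ± 1128 CPM (SD, n = 3), and pooled Pyy was 3350, 10762 and 1440 CPM, a mean of 5184 ± 4924 CPM. The highest library held 8.52 times the lowest for Ppy and 7.47 times for Pyy, against 1.28 times for Gcg. Among median cells the spread was 5.82 times for Ppy, 18.1 times for Pyy and 1.28 times for Gcg. Library A was highest in Ppy, and library B, which was lowest in Ppy, was highest in Pyy. Ppy made up 41.2%, 2.50% (2.44 to 2.56) and 27.3% of the Ppy and Pyy UMIs in libraries A, B and C, compared with 45.1% and 47.9% in the islet alpha cells. Pyy exceeded Ppy in 80.8%, 100% and 83.0% of tumor cells.

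Most of the Ppy in each tumor library came from few cells. The top 5% of cells held 65.3%, 59.0% and 72.9% of Ppy UMIs in libraries A, B and C. Cells at 10000 CPM or more numbered 18 of 495 (3.64%), 2 of 846 (0.236%) and 8 of 1084 (0.738%), and they held 57.8%, 14.0% and 56.9% of their library's Ppy UMIs. In library A, 10 cells lay between 8000 and 12000 CPM. In libraries A and C these cells kept Gcg near the level of the other cells, with medians of 366207 against 360600 CPM and 284610 against 311557 CPM. They also held more Pyy, 5936 against 1772 CPM and 7413 against 416 CPM. Their median depth was 24072 against 19661 UMIs in library A and 23815 against 19374 in library C, and the part of depth in these values was not tested. No tumor cell held more Ppy than Gcg, which allows shares of up to 0.606%, 0.355% and 0.277%. In library C the 385 cells of cluster 4 held 900 CPM of Ppy and 2642 CPM of Pyy, and the 697 cells of cluster 2 held 322 and 709 CPM.

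After thinning each cell to 5000 UMIs, 86.0%, 40.02% and 49.8% of tumor cells had a UMI of Ppy and 97.5%, 100% and 85.0% one of Pyy. Without thinning the shares for Ppy were 98.8%, 83.1% and 87.0%. The tumor libraries hold no cell type to give their background, and for comparison 92.5% of 67 thinned heterozygous endothelial cells (85.6% of all 195) had a UMI of Ppy. A single UMI of Ppy in a tumor cell is therefore not read as expression here.

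The 25% of alpha-like cells with the most Ppy (Ppy-high cells) were compared with the 25% with the least (Ppy-low cells) within each library, with Ppy itself left out of the fit. Each class held 77 heterozygous or 382 homozygous islet cells, and 124, 212 or 271 cells of tumors A, B and C. Ppy-high cells had more than 6974 and 96858 CPM of Ppy in the heterozygous and homozygous library and more than 1170, 166 and 226 CPM in the tumors. Pyy rose from Ppy-low to Ppy-high cells in all 5 libraries. Its mean over cells went from 7286 to 38888 CPM in the heterozygous library (5.34 times) and from 36346 to 131120 CPM in the homozygous one (3.61 times). In the tumors it went from 1988 to 5262 CPM (2.65 times), from 7460 to 16274 CPM (2.18 times) and from 792 to 2976 CPM (3.76 times). The change was 1.74 on the log2(CPM + 1) scale (SE 0.18, limma with library as a block, adjusted p = 0.0021). Pyy was the 1 gene called among 10141 (0.00986%), and none was called lower. At an unadjusted p under 0.05 there were 132 genes higher and 502 lower, and edgeR called 4 higher (Pyy, Ache, Egr4 and Fam101a) and 1 lower (Cidea).

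The call for Pyy was lost without tumor library A (adjusted p = 0.162, change 1.83) and without a filter on low values (adjusted p = 0.867, limma). In the 3 tumor libraries alone the change was 1.48 (limma adjusted p = 5.07e-04), and without cells that had excess UMIs 1.73 (adjusted p = 0.00164). Ppy-high cells were deeper in the heterozygous library, with a median of 11359 against 8445 UMIs per cell, and in tumors A (21075 against 18495) and C (19667 against 18888), and not in the homozygous library (14614 against 15660.5) or tumor B (26335.5 against 27245). The part of depth in the Pyy change was not tested. In tumor libraries A, B and C 0, 4 and 5 of 8 beta cell markers were at 5 CPM or more. Their summed level was 7.24, 138 and 3333 CPM. The Ppy-high cells of library C also held more Sst (1117 against 214 CPM) and Ins2 (3388 against 1572 CPM). In tumor libraries A and B Sst lay under 12 CPM and Ins2 under 5 CPM in both classes. The part of other cell types, PP cells included, in the Pyy change was not tested in any library.

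Gcg did not pass the same test. It went from 336257 to 311517 CPM in the heterozygous library and from 384963 to 235913 CPM in the homozygous one (0.613 times). In tumors A, B and C it went from 372221 to 372658, from 287564 to 288418 and from 321776 to 307235 CPM. The change was -0.18 (limma adjusted p = 0.959).

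**Figure D4:**
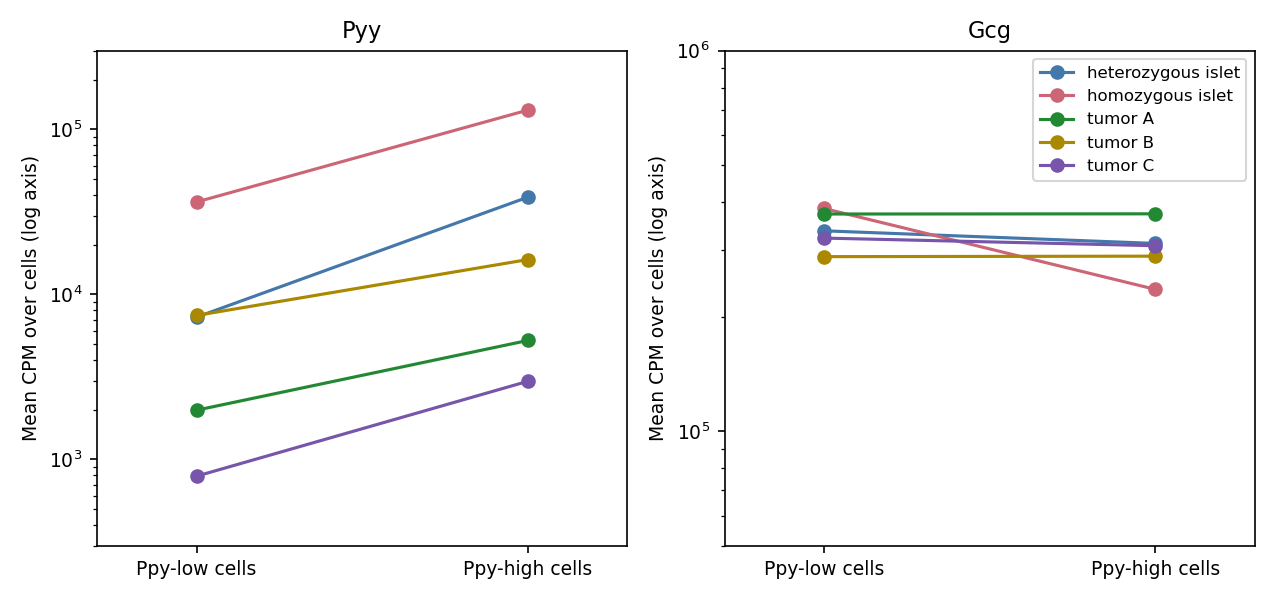
Mean CPM over cells of Pyy (left) and Gcg (right) in Ppy-low and Ppy-high cells, the 25% of alpha-like cells with the least and the most Ppy, on log axes, 1 line per library. The Pyy lines go up in all 5 libraries, and the Gcg line goes down by most in the homozygous islet library, from 384963 to 235913 CPM.

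Npy was rare, and its pattern differed from that of the other members. It was highest in beta cells of the heterozygous library, at 35.4 CPM (32.7 to 38.4; 612 UMIs in 107 of 686 cells), and in delta cells of the homozygous library, at 34.5 CPM (28.6 to 41.3; 119 UMIs in 24 of 332 cells). Heterozygous delta cells were at 8.92 CPM, which rests on 4 UMIs, and homozygous beta cells at 7.66 CPM (5.54 to 10.3). Alpha cells held 4.98 CPM (2.84 to 8.08) in the heterozygous library and 0.812 CPM (0.481 to 1.28) in the homozygous one. Endothelial cells held 2.34 CPM (0.284 to 8.46; 2 UMIs) and 1.77 CPM (1 UMI), so the alpha cell levels could not be told from background at this depth. PP cells, the richest in Ppy, held 1 UMI of Npy. Tumor libraries A and B held none, which allows levels of up to 0.297 and 0.133 CPM (3 counts), and library C held 2 UMIs.

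A handful of cells carried most of the Npy. In the heterozygous library 14 of 686 beta cells had 10 or more UMIs, up to 124, and held 469 of the 612 UMIs (76.6%). The other beta cells together were at 8.49 CPM, and 93 of them had a UMI. The 14 cells were deeper, with a median of 32682 against 26351 UMIs, and their median Ppy (927 against 763 CPM), Pyy (641 against 520 CPM) and Ins2 (377164 against 418511 CPM) lay near those of the other beta cells. In the homozygous library 3 delta cells with 10 to 26 UMIs held 47 of 119 UMIs (39.5%), and 1 beta cell held 16 of 43. After thinning to 5000 UMIs, 7.21% of heterozygous beta cells had an Npy UMI (5.38 to 9.41), against 15.6% before thinning, and 0 of 67 heterozygous endothelial cells did, which allows a share of up to 4.48%. The homozygous over heterozygous ratio of Npy was 0.163 in alpha cells (0.0786 to 0.342), 0.216 in beta cells (0.155 to 0.295) and 3.87 in delta cells (1.47 to 14.4). The alpha ratio rests on 16 heterozygous and 18 homozygous UMIs.

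**Figure D5:**
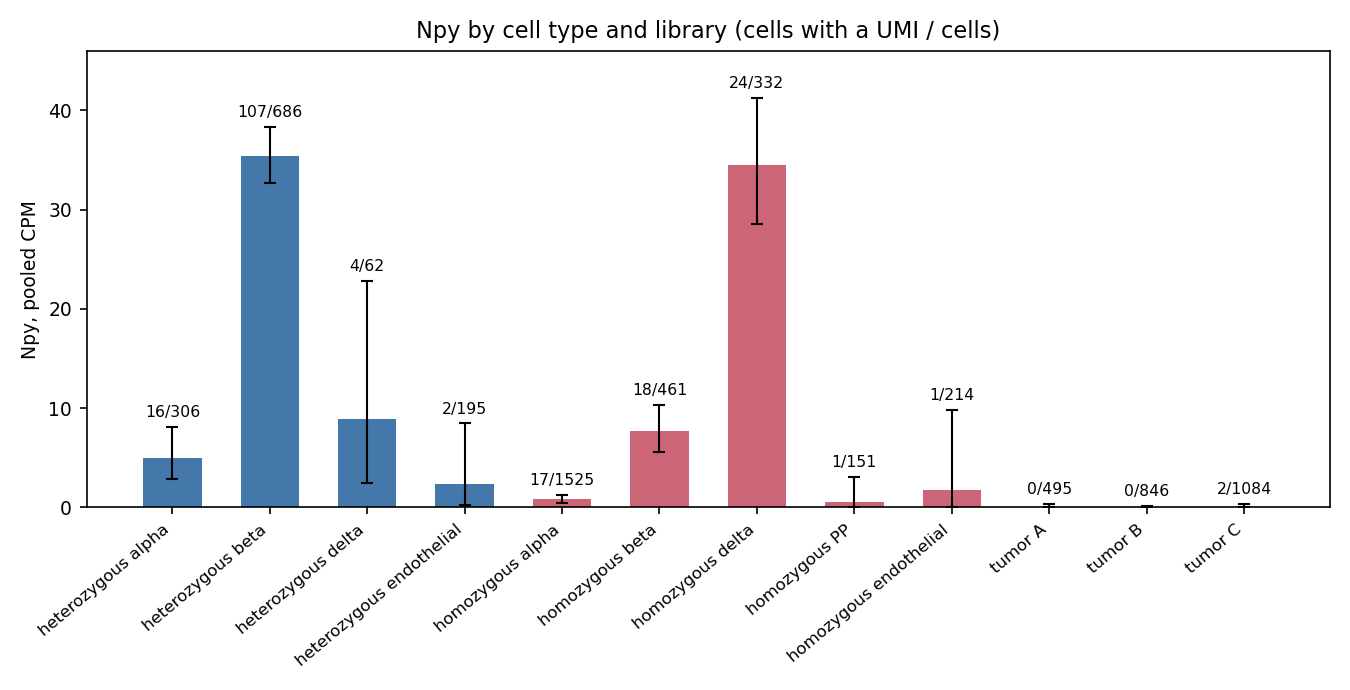
Pooled Npy level in CPM by cell type and library, with exact Poisson 95% intervals, and the number of cells with a UMI over all cells above each bar. Heterozygous beta cells (35.4 CPM) and homozygous delta cells (34.5 CPM) stand above all other groups shown, and the tumor libraries lie at or near 0.

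The receptors of the family were barely seen. Npy4r, the receptor that pancreatic polypeptide prefers, Npy5r and Npy6r had no UMI in any library, and Npy2r had 1, in tumor library B. Npy1r, the Y1 receptor, was at 42.1 CPM in homozygous stellate cells (8 UMIs; 18.2 to 83.0), at 3.51 and 3.53 CPM in endothelial cells of the heterozygous and homozygous library (3 and 2 UMIs), and at 0.0991, 0.398 and 0.230 CPM in tumors A, B and C. None of the 5 passed the filter of either comparison.

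The genes that cut and amidate such precursors did not pass the test with Ppy in either comparison. Of 10 peptide processing genes 8 were tested, and limma called 0 between tumors and islet alpha cells (0 at an unadjusted p under 0.05, 0 by edgeR, 1 by DESeq2), with a median of -0.46 relative to all genes. Over all genes tested in this comparison limma called 2.22%, edgeR 0.178% and DESeq2 6.47%, and 21.2% had an unadjusted p under 0.05. Pcsk2, the convertase that makes glucagon, was at 6214 and 2942 CPM in the islet alpha cells and at 6492, 4362 and 2101 CPM in the tumors. The gene that DESeq2 called was Pcsk1n, the precursor of a convertase inhibitor, at 8839 and 3015 CPM in islet alpha cells and 2480, 2048 and 3164 CPM in tumors. Between Ppy-high and Ppy-low cells limma called 0 of the 8 (0 unadjusted, 0 by edgeR), with a median of 0.07. Over all genes tested there, 6.25% had an unadjusted p under 0.05 and edgeR called 0.0492%.

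Of 24 other islet and gut peptide genes 15 were tested, and limma called 0 in the tumors (7 unadjusted against 21.2% of all genes, 0 by edgeR, 1 by DESeq2, which was Iapp) and 0 between Ppy-high and Ppy-low cells (4 unadjusted against 6.25% of all genes, 0 by edgeR), with medians of -0.45 and 0.05. Sct, the secretin gene, was at 0.835 and 49.2 CPM in islet alpha cells and at 93.3, 85.8 and 156 CPM in the tumors (limma adjusted p = 0.137). Vgf, a neuroendocrine peptide precursor, was at 10.4 and 131 CPM and at 316, 452 and 202 CPM (limma adjusted p = 0.114). Both had all tumors above both islet libraries, as had 33.3% of all genes tested. Ins2, Ins1, Sst and Iapp went the other way, with changes of -9.52, -7.70, -6.54 and -6.49, against -5.75 for Ppy. Their limma adjusted p was 0.108, 0.0663, 0.121 and 0.0676. Each of them had all tumors below both islet libraries, as had 5.73% of all genes tested. A large fall in the tumors was thus not particular to Ppy. Scg2, a granin of the secretory granule, was higher in Ppy-high cells in 5 of 5 libraries (0.39, limma adjusted p = 0.787). The share of all genes that changed alike in 5 of 5 libraries was not counted. Ins2 in islet alpha cells lay near the endothelial background, at 38150 against 33442 CPM in the heterozygous and at 6605 against 5239 CPM in the homozygous library, and Sst was at 1019 against 489 CPM and at 3069 against 2164 CPM.

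Of 19 islet transcription factors 15 were tested, and limma called 0 in the tumors (1 unadjusted against 21.2% of all genes, 0 by edgeR, 0 by DESeq2) and 0 between Ppy-high and Ppy-low cells (3 unadjusted against 6.25% of all genes, 0 by edgeR), with medians of -0.10 and -0.03. Isl1, a factor of islet endocrine cells, was at 226 and 231 CPM in islet alpha cells and at 217, 249 and 298.5 CPM in the tumors. Irx1, another alpha cell factor, was lower in Ppy-high cells in 5 of 5 libraries, at 40.3 against 83.1 CPM in the heterozygous and 52.2 against 161 CPM in the homozygous one (-0.65, limma adjusted p = 0.787). In tumors A, B and C it was at 106 against 129, 218 against 231 and 109 against 129 CPM. As for Scg2, the share of all genes that changed alike in 5 of 5 libraries was not counted.

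The likeness of other genes to each member was ranked over 16 groups (library by cell type), by Pearson's correlation of log2(CPM + 1) among 6583 genes with 50 CPM or more in 1 group. The 5 most like Ppy were Pyy (0.87), Ffar4 (0.81), Ly6h (0.74), Sult1d1 (0.71) and Sst (0.68). Among those most like Pyy were Ffar4 (0.94), which encodes a receptor of long-chain fatty acids, Ppy (0.87), Calb1 (0.80) and Cd164l2 (0.77). Npy correlated at 0.20 with Ppy and at 0.09 with Pyy, and was most like Frzb (0.87), Pcdh15 (0.86), Pdyn (0.86), which encodes prodynorphin, Vstm2l (0.85) and Sez6l (0.84). Groups of 1 library share its background and depth, so these values describe the groups and carry no test.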

How the data were processed

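Single-cell RNA-seq libraries (5) were analysed from the deposited tables. Per the file headers, the authors scaled each cell's UMIs to a fixed total, which makes the deposited values a signal; the cell totals that the authors gave in the headers are counts (of all UMIs for islets, of exonic UMIs for tumors). CASAVA 1.8, bcl2fastq 2.17, GSNAP and build GRCm38 are named in the submitters' processing notes. Whole UMIs were recovered for 100% of values (within 0.01) and scaled to CPM by each cell's recovered total. Whether counting used strand is not stated in the labels. Cells carry names rather than barcodes; 0 of 6645 names were shared between libraries.

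Doublets called by Scrublet (scanpy 1.11.5, expected rate 0.06; 8 in the heterozygous and 1 in the homozygous islet library, and 18, 9 and 15 in tumors A, B and C) were removed, which left 6594 cells. Cell types and clusters are the authors'. Tests used limma 3.58.1 (R 4.3.3, trended prior variance) on log2 of the mean CPM over cells plus 1, with genes at 5 CPM in 2 libraries and Benjamini-Hochberg adjustment at 0.05. This scale understates changes of low genes. Tumor libraries come from 3 animals; p-values measure the spread between libraries, and limma shares the variance across genes. edgeR 4.0.16 and DESeq2 1.42.0 on recovered UMIs, and other filters, scalings and left-out libraries, were alternatives. The edgeR count test called 17 genes higher and 1 lower in tumors. The fits were tested on simulated data. At a dispersion (variability between libraries) of 0.05 the tumor fit made 2 false calls among 147, and at 0.2 it made 18 among 102. At 0.2 it recovered 7.46% of genes changed by 1 on the log2 scale, 19.4% by 2 and 100% by 4. The fit of Ppy-high against Ppy-low cells made 10 false calls among 210 at 0.01 and 1 among 189 at 0.04.

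The members, gene lists and tests were chosen with earlier results of these data known. Genes named are the members, Gcg, the receptors, list genes given as examples and, for Ppy-high against Ppy-low cells, called genes changed alike in every library at 50 CPM or more. Examples among list genes that were not called, and genes called by other tools, were chosen after their values were seen. Promoter windows are from RefSeq (GRCm38.p6), and all 3 members matched by symbol. Proteins were not used here, and a few genes of the lists and rankings are not reported here.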

Additional observations from a re-analysis of the deposited data

Results flagged for a closer look

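The genotype ratio of Npy (homozygous over heterozygous islet library, pooled CPM) went in opposite directions in different cell types. It was 3.87 in delta cells, where it rests on 4 heterozygous UMIs, and 0.216 in beta cells. In alpha cells it was 0.163, from 16 heterozygous and 18 homozygous UMIs, at levels that could not be told from background. This difference between cell types was not tested, because each genotype had 1 library. In the heterozygous beta cells 14 cells held 76.6% of the Npy UMIs.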

How the results depend on the processing

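With each alternative to the tumor comparison, the genes called higher and lower (212 and 14 as reported) were as follows: 24 lower with a pseudocount of 5 CPM, 6 and 0 with no filter, 35 and 5 with TMM scaling, 25 and 5 with totals free of hormone transcripts, 17 and 1 with edgeR, 393 and 262 with DESeq2, 910 and 2 with medians over cells, and 102 and 7 with cluster 2.1 alone. Leaving out 1 library gave 14 to 143 higher and 0 to 22 lower, with the lowest numbers without the heterozygous library, 53 and 2 without the homozygous one, 27 and 4 without tumor library A and 52 and 22 without tumor library C. Ppy kept its direction throughout (-6.84 to -4.65 without 1 library) but was not called with no filter (-5.75, adjusted p = 0.150), TMM (-5.96, 0.0647), hormone-free totals (-6.23, 0.0616), edgeR (-5.87, 0.107) or medians (-5.41, 0.0631). The cause was not tested.

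Between Ppy-high and Ppy-low cells, Pyy ranged from 1.57 to 1.90 without 1 library, and the genes called from 0 to 1 higher and 0 to 1 lower; Cidea was called lower without the heterozygous library, and Pyy was lost without tumor library A (1.83). With no filter 0 were called (Pyy 1.74), and edgeR called 4 higher and 1 lower.

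The alpha cell ratio of Ppy between genotypes (4.79) was 4.57 as means over cells, 14.6 as medians, 4.30 with the endothelial level taken off, 5.45 with hormone-free totals, 4.93 without clusters holding more Ppy than Gcg and 4.36 without cells of excess UMIs; that of Pyy (4.28) was 4.61, 6.95, 4.09, 4.88 and 4.14 under these settings except the clusters. Limits of 5000, 20000 CPM and the endothelial 95th percentile gave 30.7%, 14.7% and 55.9% of heterozygous and 100%, 61.3% and 65.6% of homozygous alpha cells as high in Ppy; limits of 5000 and 20000 CPM gave 8.08% and 1.62% in tumor A, and 20000 CPM gave 0% in tumor B. The correlation of Pyy and Gcg in homozygous alpha cells (-0.44) was 0.0518 with hormone-free totals. The excess-UMI, cluster 2.1 and tumor-only settings, and taking off the endothelial level in the tumor comparison, were chosen after seeing the data.

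No paired analysis was possible because the islet libraries carry no replicate number and the tumor libraries could not be matched to theirs; Ppy-high and Ppy-low cells were compared within libraries. Depth limits Npy, which rests on few UMIs outside beta and delta cells, and the tumor libraries hold no cells to show their background.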
